A study of Homo sapiens with 4 samples.

Results

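The genes of general mRNA decay were examined in HaCaT cells (a spontaneously immortalized human keratinocyte line) after knockdown of ALKBH5, an enzyme that removes methyl groups from adenosines of RNA. Members were the 49 rows, of 58735 genes listed, whose gene name equals that of a known subunit or partner of the deadenylases, the decapping complex, the exonucleases, the RNA exosome or nonsense-mediated decay (NMD). Of these, 48 passed the filter on low counts, as did 15075 genes in all, and DCP1B was left untested its siControl libraries holding 3 and 9 counts and its siALKBH5 libraries 8 and 2. The labels give 2 siControl libraries (wild-type genotype, normal control siRNA) and 2 siALKBH5 libraries (knockdown of ALKBH5 with siRNA), all from the HaCAT line and transfected with a lipid reagent. They do not say which of the ALKBH5 siRNAs was used or whether the replicates were separate cultures. The p-values thus measure only the spread between these libraries. That spread was small. Between replicates, 10.88% of tested genes in siControl and 11.75% in siALKBH5 differed beyond counting noise (binomial test, unadjusted p under 0.05).

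Most mRNAs are destroyed from their ends. The poly(A) tail is first shortened by the PAN2-PAN3 and CCR4-NOT deadenylases, after which the cap is removed by DCP2 and the body is digested by XRN1, or the RNA is degraded from the other end by the exosome. NMD joins this machinery to transcripts with premature stop codons through UPF1 and its kinase SMG1. The BTG and TOB proteins and the ZFP36 proteins bring the deadenylase to messages, the ZFP36 proteins by binding AU-rich elements in the 3'UTR, which are common in messages of growth and inflammation.

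AU-rich heptamers in the 3'UTRs of the ZFP36 family and of BTG2 are shown because these genes include the members that fell most, and the ZFP36 proteins bind such elements. TATTTAT was searched on the sense strand of the longest annotated 3'UTR (GENCODE 29, GRCh38), overlapping matches included, and is in capitals below. A match is a run of letters, not a binding site that was measured, and which 3'UTR the cells used was not measured.
ZFP36L1, minus strand, chr14:68788337-68788363: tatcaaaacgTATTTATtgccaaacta
ZFP36L1, minus strand, chr14:68788295-68788321: attttgttcaTATTTATcgggatgaca
ZFP36L1, minus strand, chr14:68788078-68788104: actgttggatTATTTATtttagaaatt
ZFP36L2, minus strand, chr2:43223449-43223475: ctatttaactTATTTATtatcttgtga
ZFP36L2, minus strand, chr2:43223401-43223427: gttcatactgTATTTATcaagtatgat
ZFP36L2, minus strand, chr2:43223213-43223239: ttgtatgtaaTATTTATttcattaatt
ZFP36, plus strand, chr19:39409182-39409208: atgggcccttTATTTATgacgacttta
ZFP36, plus strand, chr19:39409197-39409223: atgacgacttTATTTATtctaatatga
ZFP36, plus strand, chr19:39409222-39409248: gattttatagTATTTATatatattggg
BTG2, plus strand, chr1:203307529-203307555: aatgaagagcTATTTATatatattatt

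The guide strands of the study's ALKBH5 siRNAs are shown with the seed, bases 2 to 8, in capitals, because a 3'UTR that holds the complement of a seed can pair with the siRNA itself. They come from the study's oligonucleotide list. The complement of the si2 seed, AACGACT, was found in 1 tested member, ZFP36L1, against 1.59% of 12464 tested genes with a 3'UTR, and that of the si1 seed, TTCGGCG, in 0 members against 0.449%. For the other strand of each siRNA, the complement of the si1 seed, GTACTTG, was in 4 members, CNOT9, DCP2, PATL1 and XRN2, against 9.56% of these genes, and that of the si2 seed, GACGGCG, in 0 members against 1.0%. Of the 4 members, CNOT9 and PATL1 rose and DCP2 and XRN2 fell in edgeR's test. The ZFP36L1 match lies in its 3'UTR on the minus strand and is printed with the complement of the seed in capitals.
ALKBH5-si1 guide strand: uCGCCGAAgaaguacuugu
ALKBH5-si2 guide strand: uAGUCGUUgaugacggcgc
ZFP36L1, minus strand, chr14:68787694-68787720: aactttttgtAACGACTatttgcagtt

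Library totals lay between 16017502 and 18837807 counts on genes. ALKBH5 itself stood at 93.8 and 87.6 CPM (counts scaled to equal library size) in siControl and at 51.2 and 49.6 CPM in siALKBH5. The knockdown left 55.6% of the control level (log2 fold change -0.85, SE 0.053, edgeR adjusted p = 6.45e-15), and the groups did not overlap. All 10 keratinocyte markers exceeded 1 CPM in every library. Their summed level was 18500 to 18900 CPM in siControl and 24800 to 24900 CPM in siALKBH5. KRT5 alone went from 7163 and 6905 CPM to 11184 and 11312 CPM. TP63, KRT17 and CDH1 were lower in both siALKBH5 libraries than in both controls, and the other markers were higher. The mitochondrial share of counts was 10.2% in siControl and 9.63% to 9.64% in siALKBH5.

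Which steps of mRNA decay changed in their transcripts after ALKBH5 knockdown was asked with edgeR's quasi-likelihood test on the counts, with Benjamini-Hochberg adjustment over all tested genes and a threshold of 0.05, the source of every adjusted p given here. Among the 48 tested members, 8 rose (16.7%), 17 fell (35.4%) and 23 did not pass, against backgrounds of 19.3% higher, 17.3% lower and 36.6% in either direction among all tested genes. Most members are well expressed, and among the 4218 genes between the quartiles of the members' mean CPM the backgrounds were 24.0% higher, 23.0% lower and 47.0% in either direction. These are the genes of like level below. Members outside the quartiles are not matched by them, and BTG2, CNOT1, ZFP36L1, ZFP36L2 and SMG1 lie above that band. The members that fell most were BTG2 and ZFP36L1, an adaptor of the deadenylase and an AU-rich element binding protein, and the member that rose most was EDC4, the scaffold of the decapping complex. The median log2 fold change was -0.06 over the members and -0.01 over all tested genes. No member was past the threshold with a log2 change of 1 or more, by edgeR or by DESeq2, against 2.92% of all genes and 0.356% of the genes of like level. An unadjusted p under 0.05 was reached by 27 members, against 44.1% and 54.8% in these backgrounds. In 13 members both siALKBH5 libraries lay above both siControl libraries, and in 21 they lay below, against 32.8% and 33.5% of all tested genes and 35.9% and 37.3% of those of like level.

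These counts rested partly on single libraries. With any 1 library left out fewer members rose and fewer fell, but so did fewer of all tested genes. The median log2 fold change of the members then lay between -0.08 and -0.06. Fold changes varied with base composition across all genes, with a median of -0.12 over the 2494 genes of lowest transcript GC content and 0.08 over the 2492 genes with 52.1% to 58.6% GC, but 0.02 over the 2493 genes of highest GC content. With GC content as an offset, chosen after seeing the data, 6 members rose and 10 fell, of which 4 and 9 were among those above. How many of all tested genes passed with that offset was not counted, so these counts have no background.

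**Figure D1:**
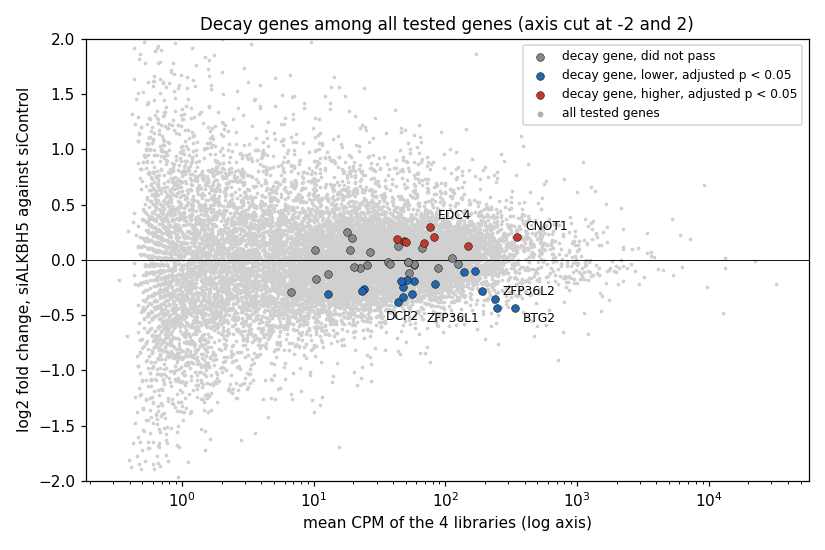
Log2 fold change (siALKBH5 against siControl) against mean CPM on a log axis, 1 point per tested gene, with all tested genes in grey and decay genes coloured by the outcome of the test. All decay genes lie between -0.44 and 0.30, and 57 genes that are not decay genes lie outside the plotted range.

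**Figure D2:**
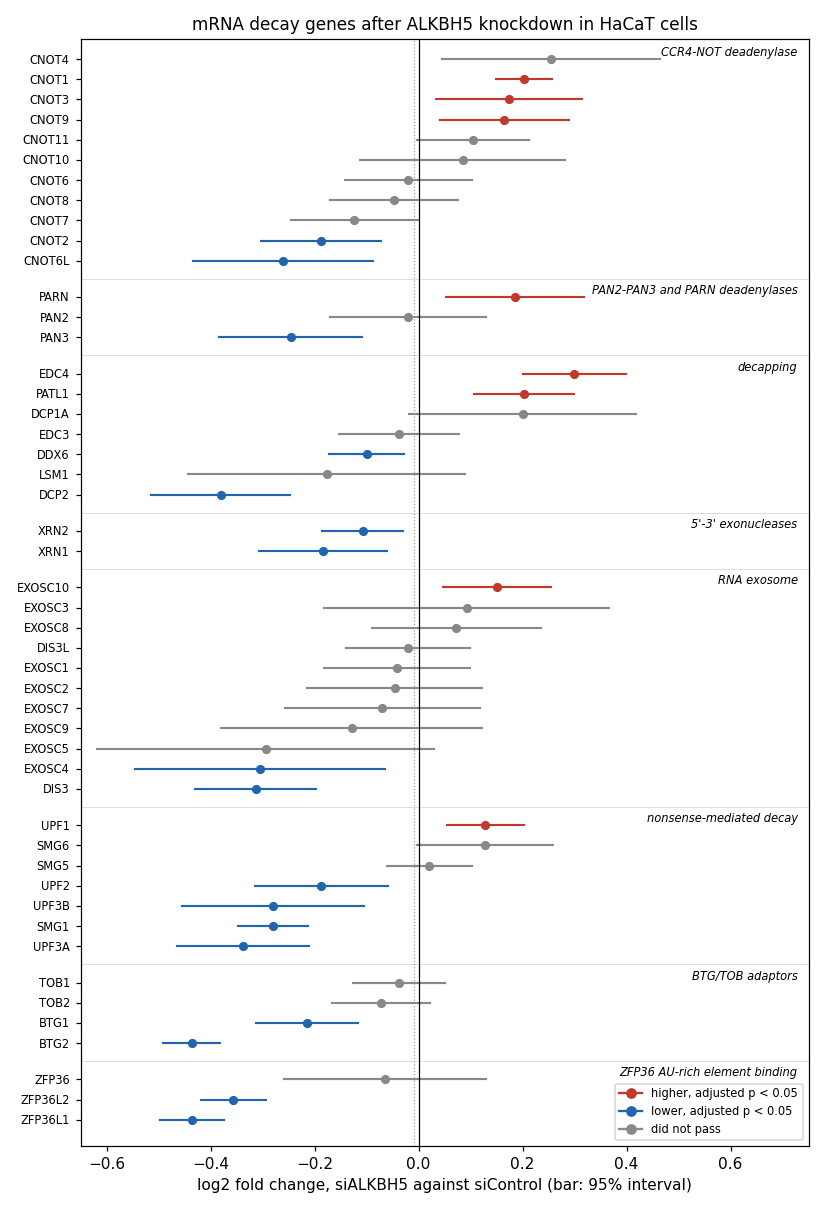
Log2 fold change of the 48 tested decay genes grouped by complex, with 95% intervals as bars, the solid line at 0 and the dotted line at the median of all tested genes. The 17 genes that fell are blue and the 8 that rose are red. The 5'-3' exonucleases, BTG/TOB and ZFP36 groups hold none that rose, but have only 2, 4 and 3 tested genes. Of all tested genes, 19.3% rose.

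The ZFP36 proteins bind AU-rich elements and recruit CCR4-NOT to the messages that carry them. Of the 3 members, 2 fell, against 17.3% of all tested genes and 23.0% of those of like level. ZFP36L1 stood at 287 and 278 CPM in siControl and at 209 and 209 CPM in siALKBH5 (log2 fold change -0.44, SE 0.030, edgeR adjusted p = 1.1e-13). Both siALKBH5 libraries lay below both controls, at 73.9% of the control level. ZFP36L2 stood at 267 and 264 CPM in siControl and at 209 and 206 CPM in siALKBH5 (log2 fold change -0.36, SE 0.030, edgeR adjusted p = 1.6e-11). Here too the groups did not overlap. ZFP36 (tristetraprolin), which also carries the heptamers shown above, stood at 19.5 and 21.6 CPM in siControl and at 19.0 and 20.4 CPM in siALKBH5. Its libraries overlapped between groups (log2 fold change -0.06, 95% interval -0.26 to 0.13). Per length, the summed level of the family went from 138 and 136 FPKM (CPM divided by the gene length in kilobases) in siControl to 107 and 106 FPKM in siALKBH5. ZFP36L2 made up 52.5% of that sum in both controls, and ZFP36 7.05% and 7.88%.

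BTG and TOB proteins bind the CNOT7 and CNOT8 catalytic subunits and stimulate deadenylation, and BTG2 is also known as an antiproliferative gene induced by p53. Of the 4 members, 2 fell, against 17.3% of all tested genes and 23.0% of those of like level. BTG2 stood at 395 and 386 CPM in siControl and at 286 and 291 CPM in siALKBH5 (log2 fold change -0.44, SE 0.027, edgeR adjusted p = 6.9e-15). The groups, of 2 libraries each, did not overlap. BTG1 stood at 91.7 and 86.5 CPM in siControl and at 74.4 and 79.3 CPM in siALKBH5 (log2 fold change -0.21, edgeR adjusted p = 6.2e-04). Its groups did not overlap, but with the GC offset its log2 fold change was -0.11 (edgeR adjusted p = 0.056). TOB1 (131 and 121 CPM against 118 and 127 CPM) overlapped between groups. TOB2, at 88.1 and 92.5 CPM against 88.4 and 83.3 CPM, did so as well, and it passed only with the GC offset, at -0.14. Per length, BTG2 held 88.3% and 88.7% of the summed BTG1 and BTG2 level in siControl, and the sum went from 162 and 158 FPKM to 119 and 122 FPKM.

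CCR4-NOT is the main cytoplasmic deadenylase, built on the scaffold CNOT1. Of its 11 members, 3 rose (27.3%, against 19.3% of all tested genes and 24.0% of those of like level). Another 2 fell (18.2%, against 17.3% and 23.0%) and 6 did not pass. The median log2 fold change was 0.08. CNOT1 stood at 325 and 331 CPM in siControl and at 376 and 379 CPM in siALKBH5 (log2 fold change 0.20, SE 0.027, edgeR adjusted p = 1.8e-07). The groups did not overlap and the rise stayed between 0.18 and 0.22 in every alternative setting. SETD6, on the other strand, shares 10.01% of the exon bases of CNOT1 and held 82 to 118 counts, and whether strand was used in counting is not given in the sources used here.

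CNOT9, which contacts RNA-binding proteins such as the ZFP36 family, stood at 45.1 and 48.8 CPM in siControl and at 52.6 and 52.8 CPM in siALKBH5 (log2 fold change 0.16, edgeR adjusted p = 0.033). CNOT3, which joins CNOT2 in the complex, stood at 49.4 and 42.1 CPM in siControl and at 54.0 and 48.7 CPM in siALKBH5, with overlapping libraries (log2 fold change 0.17, edgeR adjusted p = 0.047). CNOT2 itself fell, from 59.9 and 63.0 CPM to 53.4 and 54.7 CPM (log2 fold change -0.19, edgeR adjusted p = 0.0085). The partners of this module thus moved in opposite directions in the main test. With the GC offset neither passed, at 0.12 for CNOT3 and -0.0012 for CNOT2 (edgeR adjusted p = 0.14 and 0.99). The GC content of CNOT2 was read from a transcript of 2360 bases (33.1% GC), against a gene length of 13993 bases. CNOT9 did not pass with that offset either, at 0.13 (edgeR adjusted p = 0.08), and the calls of CNOT3 and CNOT9 were also lost with scaling by library size only. Of these calls, that of CNOT9 was lost without siControl replicate 1 or either siALKBH5 library. Those of CNOT2 and CNOT3 were lost without siControl replicate 2 or siALKBH5 replicate 1. LENG1, on the other strand, shares 7.97% of the exon bases of CNOT3 and held 107 to 145 counts.

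Of the 4 catalytic subunits, 1 passed the test, against 36.6% of all tested genes and 47.0% of those of like level. CNOT6L fell, from 26.9 and 25.8 CPM to 21.7 and 22.3 CPM (log2 fold change -0.26, edgeR adjusted p = 0.015), while its close relative CNOT6 stood at 51.1 and 54.5 CPM against 51.0 and 53.4 CPM. Per length, CNOT6L made up 27.0% and 25.0% of the pair in siControl and 23.0% and 22.7% in siALKBH5. The call of CNOT6L was lost with the GC offset (-0.12, edgeR adjusted p = 0.27), without siControl replicate 1 and without siALKBH5 replicate 1. CNOT6LP1, a copy of CNOT6L, held 183 to 220 counts of its own, and adding them changed no call. CNOT7 and CNOT8, the other catalytic pair, did not pass (log2 fold changes -0.12 and -0.05). CNOT4, a ubiquitin ligase bound to the complex, was at 16.3 and 16.3 CPM in siControl and at 20.9 and 17.9 CPM in siALKBH5, just short of the threshold (log2 fold change 0.26, edgeR adjusted p = 0.0505), and it passed with the GC offset, at 0.36. CNOT10 and CNOT11, which form a module of their own, did not pass either, at 0.08 and 0.10.

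The other deadenylases moved apart. PAN3, which recruits the PAN2 nuclease to the tail, fell from 50.2 and 53.9 CPM to 47.2 and 40.4 CPM (log2 fold change -0.25, edgeR adjusted p = 0.0043). PARN, a deadenylase that trims many noncoding RNAs, rose from 40.2 and 39.6 CPM to 44.4 and 46.3 CPM (log2 fold change 0.19, edgeR adjusted p = 0.025). Neither pair of groups overlapped. PAN2 was at 35.1 and 39.3 CPM against 38.4 and 34.9 CPM, with overlap. The call of PAN3 was lost without siControl replicate 2, without siALKBH5 replicate 2 and with the GC offset, and that of PARN without either siControl library or siALKBH5 replicate 2.

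**Figure D3:**
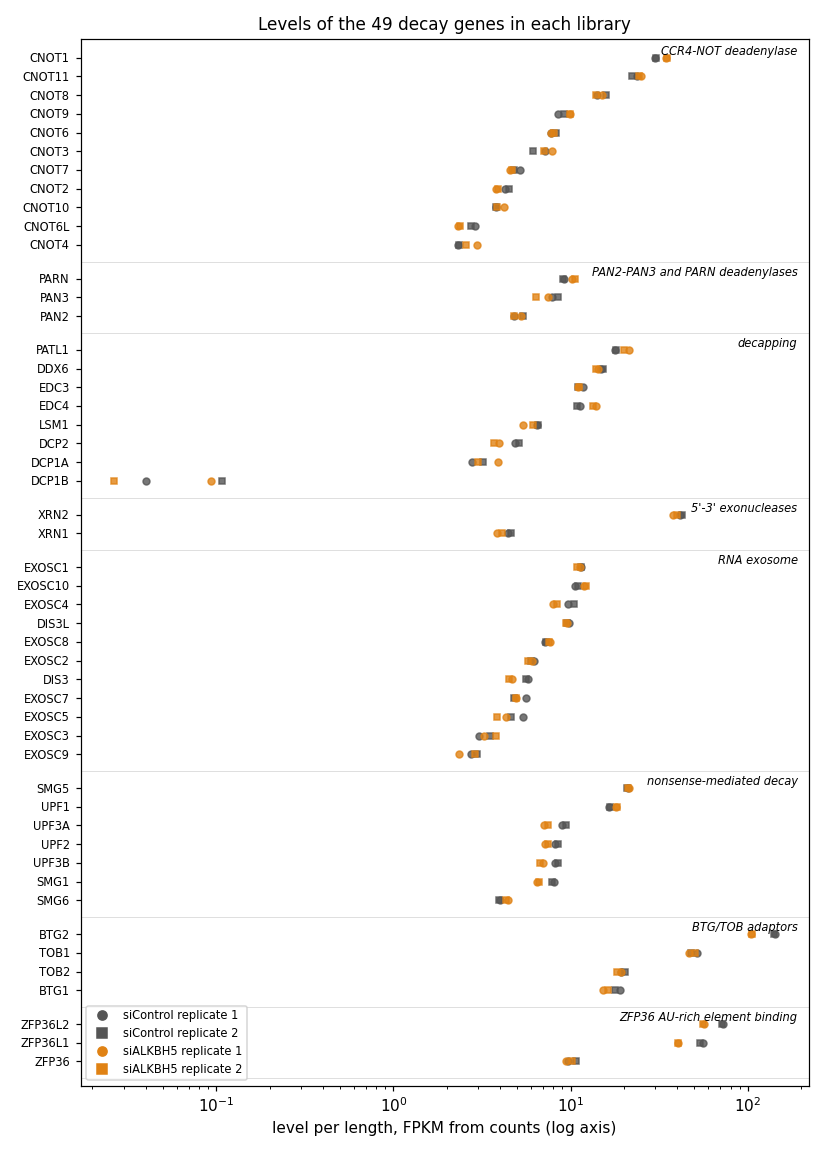
Level per length of the 49 decay genes in each library, in FPKM computed from the counts, on a log axis, with circles and squares for replicates 1 and 2. BTG2 stands highest, at 142 FPKM on average in siControl, and DCP1B lowest, with 2 to 9 counts a library.

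Decapping commits a deadenylated message to decay. Of the 7 tested members, 2 rose and 2 fell (28.6% each). Of all tested genes 19.3% rose and 17.3% fell, and of those of like level 24.0% and 23.0%. DCP2, the enzyme that cleaves the cap, stood at 48.5 and 51.0 CPM in siControl and at 39.5 and 36.9 CPM in siALKBH5 (log2 fold change -0.38, SE 0.066, edgeR adjusted p = 1.9e-05). EDC4, the scaffold that joins DCP2 to its activator DCP1, stood at 70.1 and 67.0 CPM in siControl and at 85.6 and 82.9 CPM in siALKBH5 (log2 fold change 0.30, SE 0.049, edgeR adjusted p = 7.8e-06). The transcripts of the enzyme and of its scaffold thus lay on opposite sides of the controls, with no overlap for either. With the GC offset the values were -0.25 and 0.25, and both passed.

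PATL1, which bridges the LSM ring at the tail to the decapping enzyme, rose from 76.5 and 77.3 CPM to 91.2 and 85.6 CPM (log2 fold change 0.20, SE 0.047, edgeR adjusted p = 8.6e-04). DDX6, a helicase of translational repression and P-bodies, fell by a small amount, from 170.5 and 174.9 CPM to 163.5 and 158.7 CPM (log2 fold change -0.10, edgeR adjusted p = 0.024). With the GC offset DDX6 was at -0.02 (edgeR adjusted p = 0.75), and its call was lost without siControl replicate 2 or siALKBH5 replicate 2. DCP1A was at 17.1 and 19.6 CPM against 23.7 and 18.4 CPM, and did not pass. It did pass without siALKBH5 replicate 2, at 0.37, and was at -0.0012 without siALKBH5 replicate 1, so its value turned on which of these libraries was kept. EDC3 and LSM1 did not pass, at -0.04 and -0.18. CLK3, on the other strand, shares 13.74% of the exon bases of EDC3 and held 1617 to 1856 counts. BAG4 likewise shares 11.72% of those of LSM1 and held 381 to 546 counts.

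Both 5'-3' exonucleases fell by small amounts, where 17.3% of all tested genes and 23.0% of those of like level fell. XRN1, the cytoplasmic enzyme that digests decapped messages, went from 53.3 and 55.1 CPM to 46.3 and 49.3 CPM (log2 fold change -0.18, edgeR adjusted p = 0.016). XRN2, its nuclear relative, which also acts in transcription termination, went from 142 and 146 CPM to 130.3 and 137 CPM (log2 fold change -0.11, edgeR adjusted p = 0.027). Neither pair of groups overlapped, but both calls were lost without siControl replicate 2, without siALKBH5 replicate 1 and with the GC offset, where the values were -0.06 and -0.07.

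The RNA exosome degrades RNA from its 3' end and is built from a ring of subunits with the nucleases DIS3, DIS3L or EXOSC10. Of its 11 members, 1 rose (9.09%, against 19.3% of all tested genes and 24.0% of those of like level). Another 2 fell (18.2%, against 17.3% and 23.0%) and 8 did not pass. The median log2 fold change was -0.05. DIS3, a catalytic subunit that is mostly nuclear, stood at 62.4 and 60.9 CPM in siControl and at 50.3 and 48.9 CPM in siALKBH5 (log2 fold change -0.31, SE 0.057, edgeR adjusted p = 3.9e-05). The groups were well separated. DIS3L, its cytoplasmic relative, stood at 53.0 and 51.7 CPM against 52.1 and 51.0 CPM, so that DIS3 made up 37.1% and 37.2% of the pair per length in siControl and 32.6% and 32.4% in siALKBH5. BORA, on the other strand, shares 10.89% of the exon bases of DIS3 and held 220 to 287 counts.

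EXOSC10, the nuclear exonuclease, rose from 63.9 and 66.1 CPM to 71.3 and 73.1 CPM (log2 fold change 0.15, edgeR adjusted p = 0.020). EXOSC4, a ring subunit, fell from 13.5 and 14.8 CPM to 11.2 and 11.7 CPM (log2 fold change -0.30, edgeR adjusted p = 0.042). The call of EXOSC4 was lost when any 1 of the 4 libraries was left out, and that of EXOSC10 without siControl replicate 1, without siALKBH5 replicate 2 and with the GC offset (0.10). EXOSC5, another ring subunit, was at 8.07 and 6.89 CPM against 6.42 and 5.71 CPM and did not pass (log2 fold change -0.29, 95% interval -0.62 to 0.03). The other ring and cap subunits, EXOSC1, EXOSC2, EXOSC3, EXOSC7, EXOSC8 and EXOSC9, had log2 fold changes between -0.13 and 0.09 and did not pass. EXOSC8 did pass with the GC offset, at 0.26 (edgeR adjusted p = 0.0058). The GC content of EXOSC8 was read from a transcript of 524 bases (32.8% GC), against a gene length of 3630 bases. SUPT20H, on the other strand, shares 8.32% of the exon bases of EXOSC8 and held 752 to 859 counts. EXOSC9 shares 5.39% of its exon bases with CCNA2 on the other strand, which went from 864 and 1032 counts to 1832 and 1614 counts, and its part in the value of EXOSC9 was not tested.

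**Figure D4:**
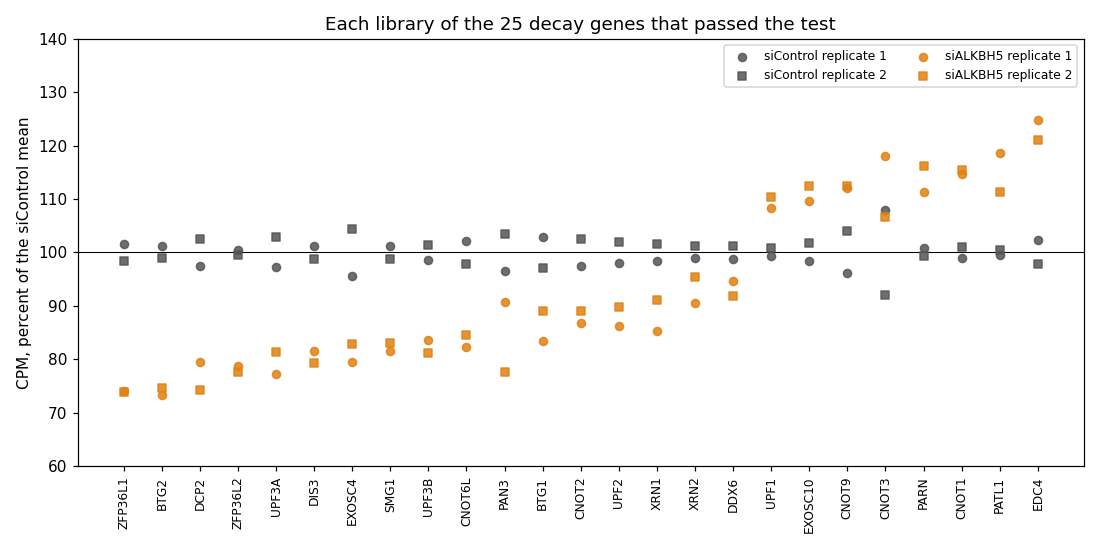
Level of each library as a percent of the siControl mean, in CPM, for the 25 decay genes that passed the test, ordered by fold change, with grey for siControl and orange for siALKBH5. Libraries overlap between groups only for CNOT3, and BTG2 and ZFP36L1 lie near 74% in both siALKBH5 libraries.

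NMD was the class of 5 or more tested members with the lowest median log2 fold change, -0.19. The ZFP36 class of 3 lay lower, at -0.36. Of the 7 NMD members, 4 fell (57.1%, against 17.3% of all tested genes and 23.0% of those of like level). Only 1 rose (14.3%, against 19.3% and 24.0%). SMG1, the kinase that phosphorylates UPF1, stood at 209.6 and 205 CPM in siControl and at 169 and 172 CPM in siALKBH5 (log2 fold change -0.28, SE 0.033, edgeR adjusted p = 2.5e-08). The groups did not overlap. SMG1 has several copies in the genome, of which SMG1P1 held 218 and 264 counts in the controls and 308 and 280 after knockdown, and adding the copies changed no call.

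UPF3A, an NMD factor, stood at 51.8 and 54.7 CPM in siControl and at 41.1 and 43.3 CPM in siALKBH5 (log2 fold change -0.34, SE 0.063, edgeR adjusted p = 5.4e-05). UPF3B, its paralog, stood at 25.3 and 26.1 CPM in siControl and at 21.5 and 20.8 CPM in siALKBH5 (log2 fold change -0.28, edgeR adjusted p = 0.010). Their summed level per length went from 17.2 and 17.9 FPKM to 14.1 and 14.3 FPKM, while UPF3A kept a share of 50.6% to 52.9% in every library. UPF2, the bridge between UPF1 and UPF3, fell from 48.3 and 50.2 CPM to 42.5 and 44.2 CPM (log2 fold change -0.19, edgeR adjusted p = 0.018).

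UPF1, the helicase at the centre of NMD, was the NMD member that rose, from 141 and 144 CPM to 154 and 157 CPM (log2 fold change 0.13, edgeR adjusted p = 0.0054). The rise was small but the groups did not overlap. With the GC offset UPF1 was at 0.08 and UPF2 at -0.11, and neither passed. The call of UPF2 was also lost without siControl replicate 2 or siALKBH5 replicate 1, and that of UPF3B without siControl replicate 2 or siALKBH5 replicate 2. SMG5 and SMG6, which act on phosphorylated UPF1, did not pass, at 0.02 and 0.13.

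Across these classes, 10 of the 25 calls held in every alternative setting: BTG2, ZFP36L1, ZFP36L2, DCP2, DIS3, UPF3A and SMG1 among those that fell, and CNOT1, EDC4 and PATL1 among those that rose. With each library left out in turn, 12 calls held, the others being UPF1 and BTG1, and in 0 of the 25 did any alternative turn the direction. With DESeq2, the tool that the study's methods name, 4 of the 8 rises and 9 of the 17 falls held, and the calls of CNOT3, CNOT9, PARN, EXOSC10, CNOT2, CNOT6L, DDX6, XRN1, XRN2, EXOSC4, UPF2 and UPF3B were lost. Without a filter on low counts, those of DDX6, XRN2 and EXOSC4 were lost.

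The heptamer TATTTAT was found in 23 of the 48 tested members (47.9%) and in 34.9% of 12464 tested genes. It was in 11 of the 17 members that fell, 4 of the 8 that rose and 8 of the 23 that did not pass. At 3 matches or more stood 6 members, ZFP36L1, ZFP36L2, DCP2, DIS3, XRN1 and ZFP36, and of these all but ZFP36 fell. Their median log2 fold change was -0.33, against -0.07 over the 838 genes of the whole table with as many matches and 0.02 over the 8112 with none. Spearman's rho between the number of matches and the log2 fold change was -0.38 over the 48 members and -0.08 over all 12464 genes. For 3'UTR length it was -0.21 over the members and -0.08 over all genes. For transcript GC content it was 0.19 over the members and 0.18 over all genes. These values describe genes that are not independent.

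Members with and without the heptamer differed in other features too. The median 3'UTR was 856 bases in members with no match and 3866 in those with 3 or more, and the median transcript GC content was 47.3% and 43.8%. By outcome, the median 3'UTR was 2813 bases in members that fell and 1345 in members that rose, against 1363 over all genes, and the median transcript GC content was 40.3% and 48.5%. Longer 3'UTRs hold more matches of any short run of letters, and among the 3119 genes with the longest 3'UTRs 66.9% held the heptamer. Within those genes the median log2 fold change was -0.08 over the 632 with 3 or more matches and -0.0002 over the 1031 with none, and their median 3'UTR lengths still differed, at 5390 and 3651 bases. The part of GC content in the pattern by matches was not tested.

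**Figure D5:**
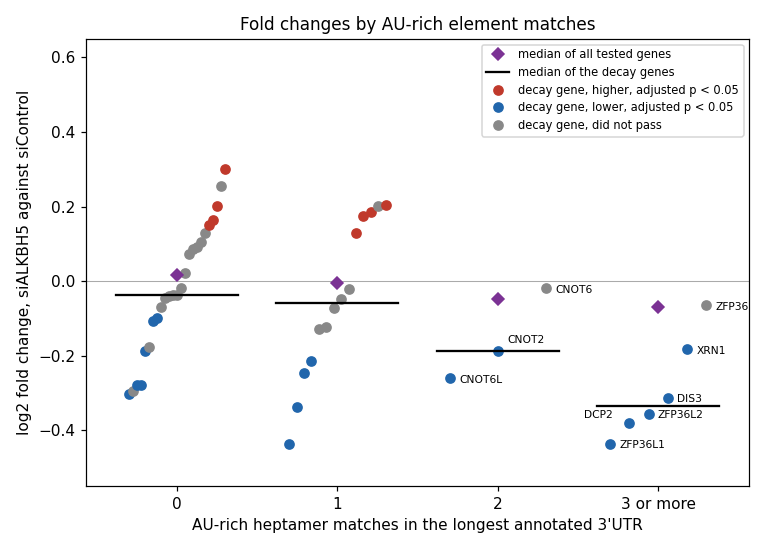
Log2 fold change of the tested decay genes by the number of TATTTAT matches in the longest annotated 3'UTR, with horizontal bars at their medians and diamonds at the medians of all tested genes. The 6 decay genes at 3 or more matches have a median of -0.33, and the diamond there is at -0.07.

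Further factors of the same pathways came from a list of 75 genes, of which 71 were tested. Of these, 13 rose (18.3%, against 19.3% of all tested genes and 24.0% of those of like level). Another 18 fell (25.4%, against 17.3% and 23.0%). The median log2 fold change was -0.02. Of the LSM ring, which binds shortened tails together with the member LSM1, 3 of 6 listed genes rose and none fell by edgeR, against the same 19.3% and 17.3%, with 3 at an unadjusted p under 0.05, against 44.1% of all tested genes. LSM2 went from 21.3 and 22.5 CPM to 33.1 and 33.1 CPM (log2 fold change 0.59, edgeR adjusted p = 3.0e-07). LSM4 went from 79.9 and 81.3 CPM to 116 and 116 CPM (log2 fold change 0.52, edgeR adjusted p = 5.9e-12). LSM2 and LSM4 are also subunits of the nuclear ring that acts in splicing. ZC3H12A (regnase-1), an endonuclease of inflammatory messages, rose by 0.39. Among those that fell were C1D, an exosome cofactor, MAGOH, a core protein of the exon junction complex, and NANOS1, a recruiter of CCR4-NOT, with log2 fold changes of -0.58, -0.57 and -0.54. Fewer of the related factors fell without siALKBH5 replicate 1, where fewer of all tested genes fell as well.

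Genes with transcripts that these pathways are known to act on moved both ways. Counts were per gene, so isoforms sensitive to NMD were not told apart from the others. Of 20 genes with transcripts described as sensitive to NMD, 5 rose (25.0%, against 19.3% of all tested genes). Another 3 fell (15.0%, against 17.3%), and the median log2 fold change was -0.03. TRIB3, HNRNPL and SRSF3 rose, by 0.61, 0.30 and 0.30, and DDIT3, GAS5 and ZFAS1 had values of -0.36, -0.28 and -0.19. Of 18 tested transcripts known for AU-rich elements, 4 rose (22.2%) and 3 fell (16.7%), against the same shares of all tested genes, with a median of 0.14. LIF, a cytokine, IER3, a stress response gene, and CDKN1A, an inhibitor of the cell cycle, rose by 0.57, 0.30 and 0.27, and CDKN1A is counted in the NMD-sensitive list as well. FOS, CXCL1 and CCND1 fell, at -1.24, -0.63 and -0.16. Fewer of the list rose without siControl replicate 2, where fewer of all tested genes rose as well. Transcript levels alone do not separate synthesis from decay.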

How the data were processed

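The authors selected poly(A) RNA, sequenced it and deposited 2 tables, 1 per replicate, of raw counts and FPKM per gene. The submitters' processing notes name CASAVA, HISAT2 2.0.5, featureCounts 1.5.0-p3, DESeq2 1.20.0 and build hg38. The FPKM deposited by the authors were scaled within each table, so FPKM were recomputed from the counts. The deposited fold changes and p-values compare single libraries and were not used. The deposited gene lengths gave the length scale.

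The main test was edgeR's quasi-likelihood test (version 4.0.16, run under R 4.3.3) on the counts, without covariates, after filterByExpr and TMM scaling, with Benjamini-Hochberg adjustment. Alternatives were DESeq2 1.42.0, other scalings, filters and an adjusted p of 0.01, leaving out single libraries, and a replicate block. A GC content offset (loess, span 0.5, per library) and the addition of pseudogene copies were chosen after seeing the data. GC content is that of the transcript with the longest annotated 3'UTR. That transcript can be much shorter than the gene, as for EXOSC8 and CNOT2. The members and the lists (related decay factors, NMD-sensitive transcripts, AU-rich element transcripts, immediate-early genes) were chosen with earlier results of these data known. All members are named, and of each other list up to 3 genes per direction with the largest fold change that passed, where the mean CPM was 1 or more and the replicates moved alike. The steps were tested on simulated data.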

Additional observations from a re-analysis of the deposited data

How the results depend on the processing

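With 2 libraries per group, small changes were near the limit of the test. Among members, 4 rose and 9 fell with DESeq2, 4 and 10 with an adjusted p of 0.01, and 10 fell with the GC content offset, while with each library left out in turn 5 to 7 rose and 9 to 15 fell. With DESeq2, 1444 of all genes fell and 189 passed with a log2 change of 1 or more, 10 related decay factors fell and 1 AU-rich element transcript rose. With each library left out, 11 to 16 related decay factors fell and 2 to 4 AU-rich element transcripts rose. The cause was not tested. The labels do not say whether same-numbered libraries were made together. The deviations of same-numbered libraries had a correlation of 0.03. That value cannot decide it, because only 10.88% of tested genes in siControl and 11.75% in siALKBH5 differed beyond counting noise. With the replicate block 9 members rose and 17 fell, CNOT4 being gained, and of all genes 3091 rose and 2831 fell. With library size alone the median of all genes was -0.03.

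Of members that did not pass, these changed sign, as log2 fold changes. With the GC content offset CNOT6 was at 0.0796, CNOT7 at 0.0262, SMG5 at -0.0416 and TOB1 at 0.0087, and with library size only SMG5 was at -0.0011. With each library left out, the ranges were -0.0608 to 0.0284 for CNOT6, -0.1243 to 0.0419 for CNOT8, -0.0956 to 0.0672 for PAN2, -0.0012 to 0.3692 for DCP1A, -0.0823 to 0.0076 for EDC3, -0.0163 to 0.2044 for EXOSC3, -0.1826 to 0.0466 for EXOSC7, -0.2796 to 0.0226 for EXOSC9, -0.0389 to 0.0008 for DIS3L, -0.0952 to 0.0203 for TOB1 and -0.1307 to 0.0119 for ZFP36.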

Other observations

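Immediate-early genes, whose short-lived messages many decay factors act on, moved both ways. Of 21 tested genes of the list, 3 rose (14.3%, against 19.3% of all tested genes) and 5 fell (23.8%, against 17.3%), with a median log2 fold change of -0.01, and FOS and IER3 stand also among the AU-rich element transcripts above. KLF2, a transcription factor, stood at 15 and 21 counts in siControl and at 91 and 69 counts in siALKBH5 (log2 fold change 2.10, edgeR adjusted p = 2.0e-07). FOS stood at 265 and 287 counts in siControl and at 133 and 108 counts in siALKBH5 (log2 fold change -1.24, edgeR adjusted p = 1.2e-09). Neither pair of groups overlapped. KLF6 rose by 0.60 and IER3 by 0.30, and EGR1 and MCL1 had values of -0.43 and -0.26, all past the threshold.

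Of the markers of other cell types, those of fibroblasts summed to 21.9 to 22.8 CPM in siControl and 18.7 to 19.1 CPM in siALKBH5, with 3 of 7 at 0 in every library. Endothelial markers summed to 32.5 to 32.6 CPM and 35.0 to 35.5 CPM. Within that sum VWF went from 18.2 and 19.3 CPM to 26.8 and 26.6 CPM, and CDH5 from 14.3 and 13.2 CPM to 8.08 and 8.93 CPM. Leukocyte markers summed to 2.42 to 3.17 CPM and 3.83 to 4.23 CPM. Melanocyte markers summed to 2.72 to 3.23 CPM and 3.16 to 3.89 CPM. The part of these markers in the results on decay genes was not tested.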
